A study of Mus musculus with 8 samples.

Results

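Progesterone synthesis and catabolism enzymes are the proteins that carry cholesterol into mitochondria, turn it into progesterone, supply the electrons for these steps and remove the product. Their genes were chosen by symbol for their roles in the pathway: Star, Cyp11a1, Hsd3b1, Fdx1, Fdxr, Por, Akr1c18, Akr1b7, Srd5a1 and Hsd17b11. All 10 were in the table of 51886 gene symbols, and all 10 passed the filter on low values that 14472 genes passed. The libraries hold mRNA of granulosa cells, the somatic cells that line the ovarian follicle, from knockout mice of the PGR-A KO strain, which lack isoform A of the progesterone receptor, and from WT mice of that strain. Each genotype has 4 libraries, and each library pools cells of 2 to 3 mice. Every mouse, knockout or wild-type, was 21 to 27 days old and received 5 IU eCG, 46 h later 5 IU hCG, and was killed 8 h after hCG. The construction of the allele, the cells it affects and the genetic background are not known from the labels. Values are TPM, shares of all transcripts that are scaled for transcript length, so that levels can be compared between genes.

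After the ovulatory signal, which hCG mimics, granulosa cells begin to luteinise and switch their steroid output from estradiol towards progesterone. The StAR protein delivers cholesterol to the inner mitochondrial membrane, where CYP11A1 cleaves its side chain to give pregnenolone, fed with electrons from NADPH through FDXR and then FDX1. HSD3B1 converts pregnenolone to progesterone, the ligand of the receptor of which the knockout mice lack an isoform. In the rodent ovary AKR1C18, the 20-alpha-hydroxysteroid dehydrogenase, inactivates progesterone, and its appearance in the corpus luteum is known to accompany luteal regression.

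Pgr, the targeted gene, was listed at 3.21, 3.52, 2.01 and 3.08 TPM in PGR-A KO replicates 1 to 4, against 1.56, 0.878, 1.41 and 0.756 TPM in WT replicates 1 to 4. All PGR-A KO libraries lay above all WT libraries, PGR-A KO replicate 3 and WT replicate 1 included. These levels are close to the filter of 1 TPM. The genotypes did not overlap in 3.42% of all genes, and limma called 0 genes higher in PGR-A KO, so Pgr did not pass. The table has 1 value for the gene and none for its isoforms, so the loss of isoform A itself cannot be checked from it. The granulosa marker Inha, an inhibin subunit, ranged from 2994 to 4143 TPM in PGR-A KO libraries and from 3435 to 4645 TPM in WT libraries, and all 10 granulosa markers were above 0 in every library. Markers of other cells were present too. The summed level of 10 oocyte markers ranged from 796 to 1420 TPM in PGR-A KO and from 578 to 1082 TPM in WT, that of 9 theca and interstitial markers from 131 to 160 TPM in PGR-A KO and from 118 to 303 TPM in WT, and none of these genes was at 0 in any library. Gdf9, an oocyte growth factor, and Aldh1a1, a retinaldehyde dehydrogenase, were the most abundant of these lists. Macrophage, endothelial, surface epithelial and stromal markers had sums of at most 180 TPM in PGR-A KO and 192 TPM in WT for any list, the most abundant genes being Lyz2, Cdh5, Krt8 and Col3a1. The 5 erythroid markers summed to between 3660 and 6318 TPM in PGR-A KO and between 1732 and 11370 TPM in WT, with the globin gene Hbb-bs the highest of them, and no marker of any list passed the test between genotypes. In such bulk samples fewer cells of a type and less RNA per cell cannot be told apart. PGR-A KO replicate 3 was the lowest PGR-A KO library and WT replicate 1 the highest WT library for Star, Fdx1, Fdxr, Por and Hsd17b11, and the fit without both is described after the other results.

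Star, Cyp11a1, Hsd3b1 and Fdx1, which serve the synthesis of progesterone from cholesterol, were among the most abundant genes in these cells. By the mean TPM over the 8 libraries, Hsd3b1 ranked 30th, Fdx1 104th, Star 148th, Cyp11a1 152nd and Hsd17b11 221st among the 14472 genes tested. Hsd3b1 had a mean of 2089 TPM, Fdx1 1058 TPM, Star 783 TPM, Cyp11a1 747 TPM and Hsd17b11 516 TPM. Fdxr followed at 183 TPM, then Por at 54.6 TPM, Akr1b7 at 38.7 TPM, Akr1c18 at 26.5 TPM and Srd5a1 at 9.004 TPM. Along this order each gene lay above the next in all 8 libraries from Hsd3b1 to Star, and again from Cyp11a1 down to Por. Neighbours whose order was not the same in every library were Star and Cyp11a1 (Star above in 5 of 8), Por and Akr1b7 (Por above in 6 of 8), Akr1b7 and Akr1c18 (Akr1b7 above in 5 of 8) and Akr1c18 and Srd5a1 (Akr1c18 above in 7 of 8). The catabolic genes Akr1c18 and Srd5a1 lay below Star, Cyp11a1, Hsd3b1, Fdx1 and Fdxr in every library of either genotype.

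No difference between PGR-A KO and WT cells was detected for any of the 10 genes. With limma over all genes tested, 0 of 10 passed the adjusted p threshold of 0.05, against 0.0138% of all genes (2 of 14472), and 0 of 10 had an unadjusted p under 0.05, against 6.31% of all genes. The genotypes overlapped in all 10 genes, while they did not overlap in 3.42% of all genes. The log2 change was above 0 for 8 genes and below 0 for Hsd3b1 and Akr1b7, with a median of 0.14 beside -0.023 for all genes tested. The lowest adjusted p, that of Srd5a1, was 0.847. The spread behind these p-values is that between pools of animals, and intervals as wide as those given below leave room for undetected changes of moderate size.

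**Figure D1:**
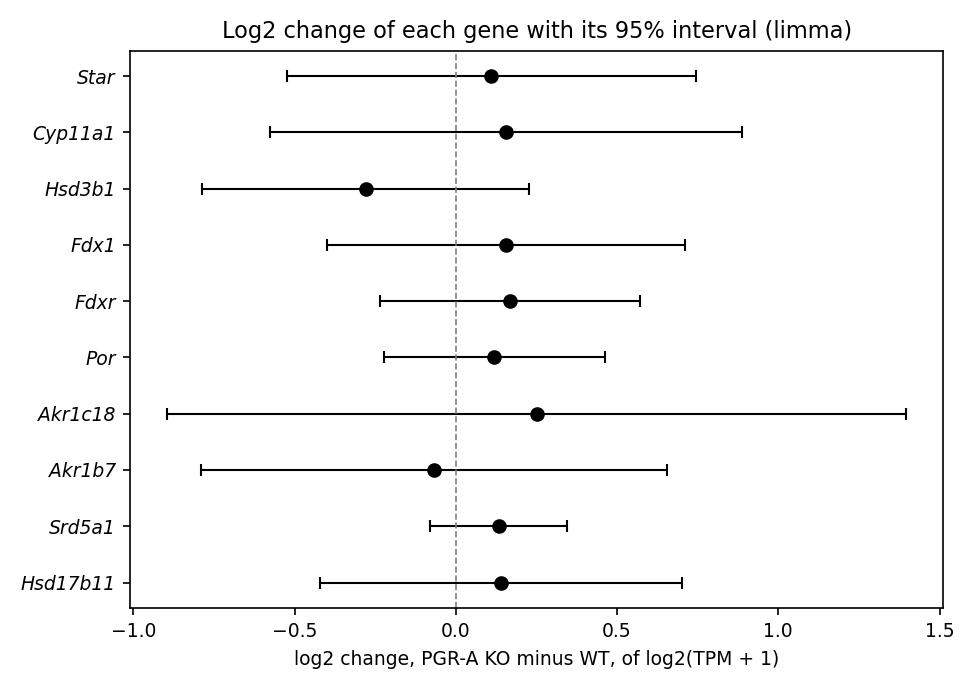
Change of each gene in log2(TPM + 1), PGR-A KO less WT, from limma. Points are estimates from 4 PGR-A KO and 4 WT libraries and bars are 95% intervals. All 10 intervals include 0; that of Srd5a1 is the narrowest, from -0.078 to 0.35, and that of Akr1c18 the widest, from -0.89 to 1.40.

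Cholesterol import and side-chain cleavage come first in the pathway. Star (ENSMUSG00000031574.8, chromosome 8, 25806555 to 25815982, plus strand, mm10) was at 1039, 853, 484 and 867 TPM in PGR-A KO replicates 1 to 4, against 1107, 802, 588 and 525 TPM in WT replicates 1 to 4. Its highest library was WT replicate 1 and its lowest PGR-A KO replicate 3, so the genotypes overlapped along most of their range. Star averaged 811 ± 234 TPM in PGR-A KO and 755 ± 263 TPM in WT (SD, n = 4 each), a log2 change of 0.11 (SE 0.28, 95% interval -0.52 to 0.74, limma adjusted p = 0.961). With PGR-A KO replicate 1 left out the change of Star was -0.027, and with WT replicate 4 left out it was -0.044.

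Cyp11a1 (ENSMUSG00000032323.13, chromosome 9, 58006411 to 58027023, plus strand) encodes the first enzyme of steroid synthesis. It was at 993, 949, 373 and 889 TPM in PGR-A KO replicates 1 to 4, against 855, 871, 524 and 521 TPM in WT replicates 1 to 4. In PGR-A KO a single library was low, while in WT the libraries were divided, replicates 1 and 2 being high and replicates 3 and 4 low. The means were 801 ± 288 TPM in PGR-A KO and 693 ± 196 TPM in WT (SD, n = 4 each), a log2 change of 0.16 (SE 0.32, 95% interval -0.58 to 0.89, limma adjusted p = 0.953). The change ranged from 0.020 with PGR-A KO replicate 1 left out to 0.49 with PGR-A KO replicate 3 left out, where limma gave an adjusted p of 0.450. Within a library Star and Cyp11a1 kept close to each other, with a ratio of Star to Cyp11a1 of 1.05 ± 0.172 in PGR-A KO and 1.09 ± 0.161 in WT (SD, n = 4 each).

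Hsd3b1 (ENSMUSG00000027871.16, chromosome 3, 98852194 to 98859794, minus strand) makes progesterone itself. It was at 2091, 2156, 1312 and 1929 TPM in PGR-A KO replicates 1 to 4, against 2060, 3401, 1846 and 1913 TPM in WT replicates 1 to 4. WT replicate 2 was far above every other library, and PGR-A KO replicate 3 was the lowest. The log2 change was -0.28 (SE 0.22, 95% interval -0.79 to 0.23, limma adjusted p = 0.867), and it was -0.076 without WT replicate 2. The ratio of Hsd3b1 to Cyp11a1 was 2.11, 2.27, 3.51 and 2.17 in PGR-A KO replicates 1 to 4, against 2.41, 3.91, 3.52 and 3.67 in WT replicates 1 to 4. The ratios of PGR-A KO replicates 1, 2 and 4 lay below all WT ratios, and that of PGR-A KO replicate 3 lay among them. Hsd3b1 has close relatives: 13.2% of the 31-base words of its longest coding transcript occur in transcripts of other genes, up to 5.86% in Hsd3b6. Hsd3b2 lay between 1.41 and 2.06 TPM and Hsd3b6 between 0.652 and 1.41 TPM. Gm12431, which holds 3.95% of the words, had a listed value of 0 in each PGR-A KO library, against 5.31, 2.03, 0 and 2.63 TPM in WT replicates 1 to 4. All these values are far below those of Hsd3b1, and the division of reads makes them uncertain.

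**Figure D2:**
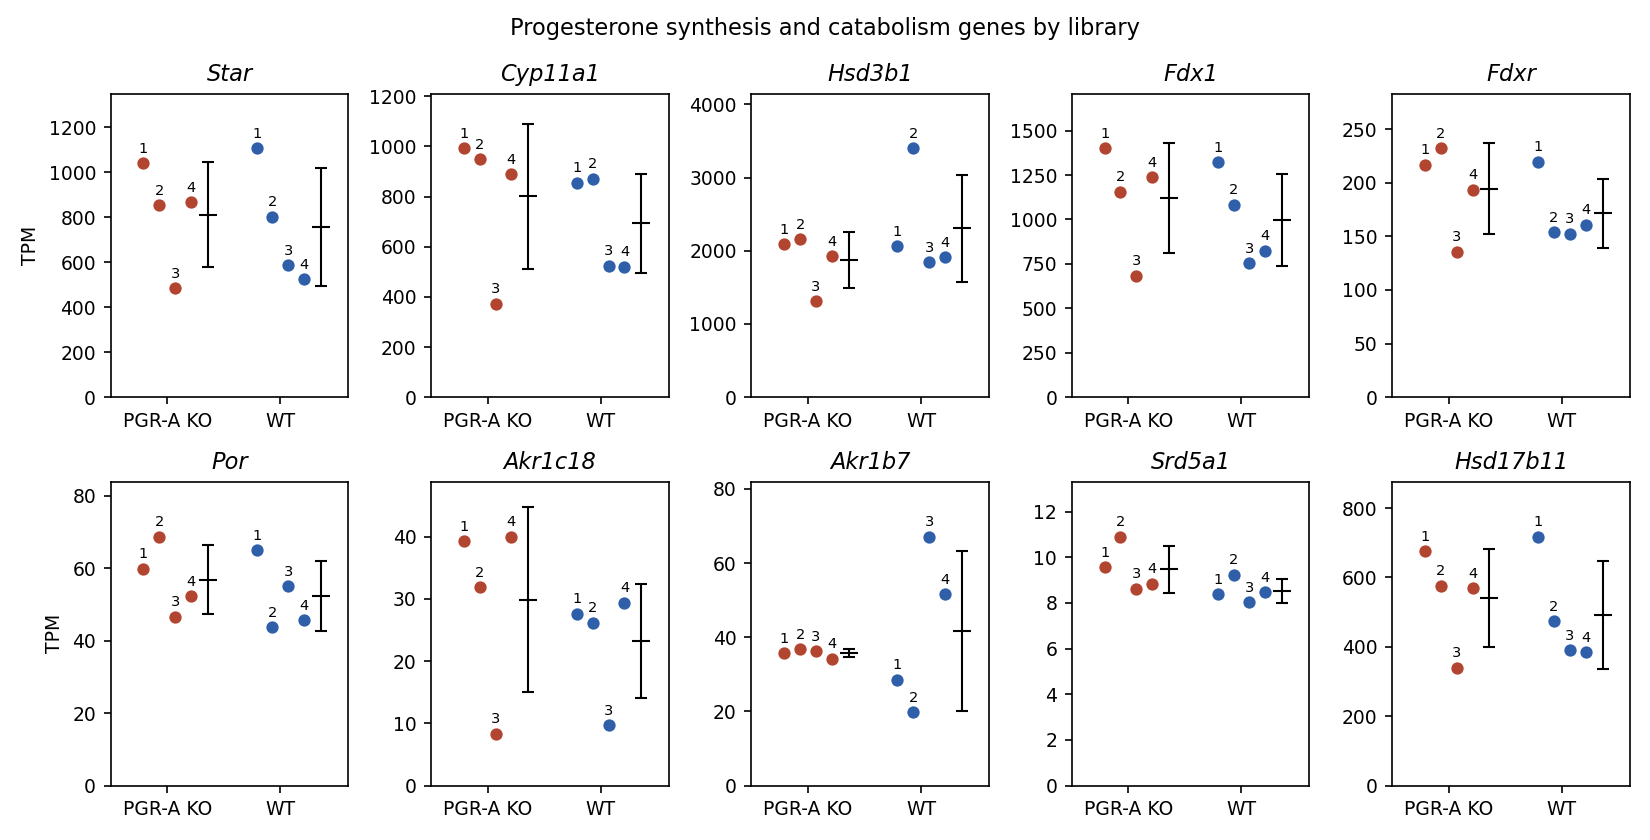
TPM of each gene in every library, PGR-A KO (red) left of WT (blue). Points are libraries numbered by replicate, horizontal marks are group means and bars are SD (n = 4 each). PGR-A KO replicate 3 is the lowest library for Star, Cyp11a1, Hsd3b1, Fdx1, Fdxr, Akr1c18 and Hsd17b11, and the WT libraries of Akr1b7 spread from 19.8 to 67.1 TPM around PGR-A KO libraries between 34.2 and 36.8 TPM.

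The mitochondrial electron carriers of CYP11A1 differed in level, and their values by library resembled those of Star. Fdx1, ferredoxin (ENSMUSG00000032051.9, chromosome 9, 51943306 to 51963556, minus strand), was at 1401, 1156, 683 and 1238 TPM in PGR-A KO replicates 1 to 4, against 1323, 1084, 754 and 825 TPM in WT replicates 1 to 4. Its order of libraries was close to that of Star, the lowest being PGR-A KO replicate 3, followed by WT replicate 3 and WT replicate 4. The log2 change of Fdx1 was 0.15 (SE 0.25, 95% interval -0.40 to 0.71, limma adjusted p = 0.942), and ranged from 0.030 with PGR-A KO replicate 1 left out to 0.38 with PGR-A KO replicate 3 left out. Fdxr, ferredoxin reductase (ENSMUSG00000018861.8, chromosome 11, 115268024 to 115277050, minus strand), was at 217, 232, 136 and 193 TPM in PGR-A KO replicates 1 to 4, against 220, 154, 152 and 161 TPM in WT replicates 1 to 4. WT replicate 1 stood with the higher PGR-A KO libraries and the other WT libraries lay close together. Its log2 change was 0.17 (SE 0.18, 95% interval -0.24 to 0.57, limma adjusted p = 0.909), and ranged from 0.074 with PGR-A KO replicate 2 left out to 0.33 with PGR-A KO replicate 3 left out (limma adjusted p = 0.449). The carrier exceeded its reductase in every library: Fdx1 was 5.72 ± 0.825 times Fdxr in PGR-A KO and 5.79 ± 0.962 times Fdxr in WT (SD, n = 4 each). Fdx1 was 1.46 ± 0.259 times Cyp11a1 in PGR-A KO and 1.45 ± 0.152 times Cyp11a1 in WT (SD, n = 4 each).

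Por (ENSMUSG00000005514.14, chromosome 5, 135670033 to 135735326, plus strand) encodes the electron donor of the cytochromes P450 of the endoplasmic reticulum, among them CYP17A1 and CYP19A1. It was at 59.9, 68.7, 46.7 and 52.2 TPM in PGR-A KO replicates 1 to 4, against 64.98, 43.7, 55.1 and 45.7 TPM in WT replicates 1 to 4. The libraries of both genotypes were interleaved, with a log2 change of 0.12 (SE 0.15, 95% interval -0.22 to 0.46, limma adjusted p = 0.927). It ranged from 0.025 with PGR-A KO replicate 2 left out to 0.23 with WT replicate 1 left out.

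Among the catabolic genes, Akr1c18 (ENSMUSG00000021214.14, chromosome 13, 4132615 to 4150654, minus strand) varied most between libraries of all 10 genes, with 4.79 times as much in the highest as in the lowest. It was at 39.3, 31.9, 8.34 and 39.97 TPM in PGR-A KO replicates 1 to 4, against 27.6, 26.1, 9.70 and 29.4 TPM in WT replicates 1 to 4. In each genotype replicate 3 was low and the other 3 libraries lay together, those of PGR-A KO between 31.9 and 39.97 TPM and those of WT between 26.1 and 29.4 TPM. Over all libraries the means were 29.9 ± 14.8 TPM in PGR-A KO and 23.2 ± 9.11 TPM in WT (SD, n = 4 each), a log2 change of 0.25 (SE 0.51, 95% interval -0.89 to 1.40, limma adjusted p = 0.953). It was 0.76 with PGR-A KO replicate 3 left out and -0.10 with WT replicate 3 left out, and passed in neither case. The ratio of Akr1c18 to Cyp11a1 was 0.0351 ± 0.00971 in PGR-A KO and 0.0343 ± 0.0159 in WT (SD, n = 4 each). Akr1c18 shares 4.27% of its 31-base words with other genes, 2.31% with Akr1cl and 1.88% with Akr1c14. Akr1cl lay between 837 and 1015 TPM in PGR-A KO and between 790 and 1298 TPM in WT, and Akr1c14 between 114 and 237 TPM in PGR-A KO and between 109 and 472 TPM in WT. Both relatives exceeded Akr1c18 in every library, so the division of reads makes its values uncertain.

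Srd5a1, a steroid 5-alpha-reductase that acts on progesterone and testosterone (ENSMUSG00000021594.11, chromosome 13, 69573449 to 69611442, minus strand), was the lowest and the steadiest of the 10 genes. It was at 9.56, 10.9, 8.62 and 8.84 TPM in PGR-A KO replicates 1 to 4, against 8.38, 9.24, 8.03 and 8.46 TPM in WT replicates 1 to 4. The highest library was 1.36 times the lowest. PGR-A KO replicates 1 and 2 lay above all WT libraries, and PGR-A KO replicates 3 and 4 lay among them. The log2 change was 0.13 (SE 0.094, 95% interval -0.078 to 0.35, limma adjusted p = 0.847). Gm17108 holds 17.1% of the 31-base words of Srd5a1 and was listed at no more than 0.116 TPM.

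Akr1b7 reduces isocaproaldehyde, the side chain that CYP11A1 cuts from cholesterol, in the mouse adrenal. The gene (ENSMUSG00000052131.7, chromosome 6, 34412334 to 34423142, plus strand) was at 35.7, 36.8, 36.3 and 34.2 TPM in PGR-A KO replicates 1 to 4, against 28.6, 19.8, 67.1 and 51.5 TPM in WT replicates 1 to 4. The PGR-A KO libraries lay close together, while WT replicates 1 and 2 were below all of them and WT replicates 3 and 4 above all of them. The means were 35.7 ± 1.14 TPM in PGR-A KO and 41.8 ± 21.6 TPM in WT (SD, n = 4 each), a log2 change of -0.069 (SE 0.32, 95% interval -0.79 to 0.65, limma adjusted p = 0.977). Of its 31-base words 7.03% occur in Akr1b10, which lay between 13.7 and 16.7 TPM, and 3.28% in Akr1b8. Akr1b8 lay between 43.8 and 97.6 TPM in PGR-A KO and between 47.8 and 88.7 TPM in WT, above Akr1b7 in most libraries, so the division of reads makes the values of Akr1b7 uncertain.

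Hsd17b11 (ENSMUSG00000029311.16, chromosome 5, 103989762 to 104021919, minus strand) encodes a 17-beta-hydroxysteroid dehydrogenase found on lipid droplets. It was at 676, 576, 340 and 569 TPM in PGR-A KO replicates 1 to 4, against 717, 473, 391 and 385 TPM in WT replicates 1 to 4. Its libraries stood in nearly the same order as those of Star, at 0.671 ± 0.0239 times Star in PGR-A KO and 0.659 ± 0.0589 times Star in WT (SD, n = 4 each). The log2 change was 0.14 (SE 0.25, 95% interval -0.42 to 0.70, limma adjusted p = 0.948). It ranged from 0.017 with PGR-A KO replicate 1 left out to 0.35 with PGR-A KO replicate 3 left out.

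Libraries of the same genotype ranged more widely than the genotype means differed, apart from the close PGR-A KO libraries of Akr1b7. PGR-A KO replicate 3 was below the 8-library mean in 10 of 10 genes, and WT replicates 3 and 4 each in 8 of 10. PGR-A KO replicate 2 was above the mean in 10 genes, PGR-A KO replicate 1 in 9 and WT replicate 1 in 8. The summed level of the 10 genes was 6560, 6070, 3428 and 5820 TPM in PGR-A KO replicates 1 to 4, against 6411, 6884, 4395 and 4464 TPM in WT replicates 1 to 4. The summed oocyte markers ran the other way at the extremes, highest in PGR-A KO replicate 3 (1420 TPM) and lowest in WT replicate 2 (578 TPM). The 9 macrophage markers summed to 112 TPM in PGR-A KO replicate 3, with 53.8 to 63.7 TPM in the other PGR-A KO libraries, and to between 83.9 and 113 TPM in WT. The part of these cells in the order of the libraries was not tested.

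**Figure D3:**
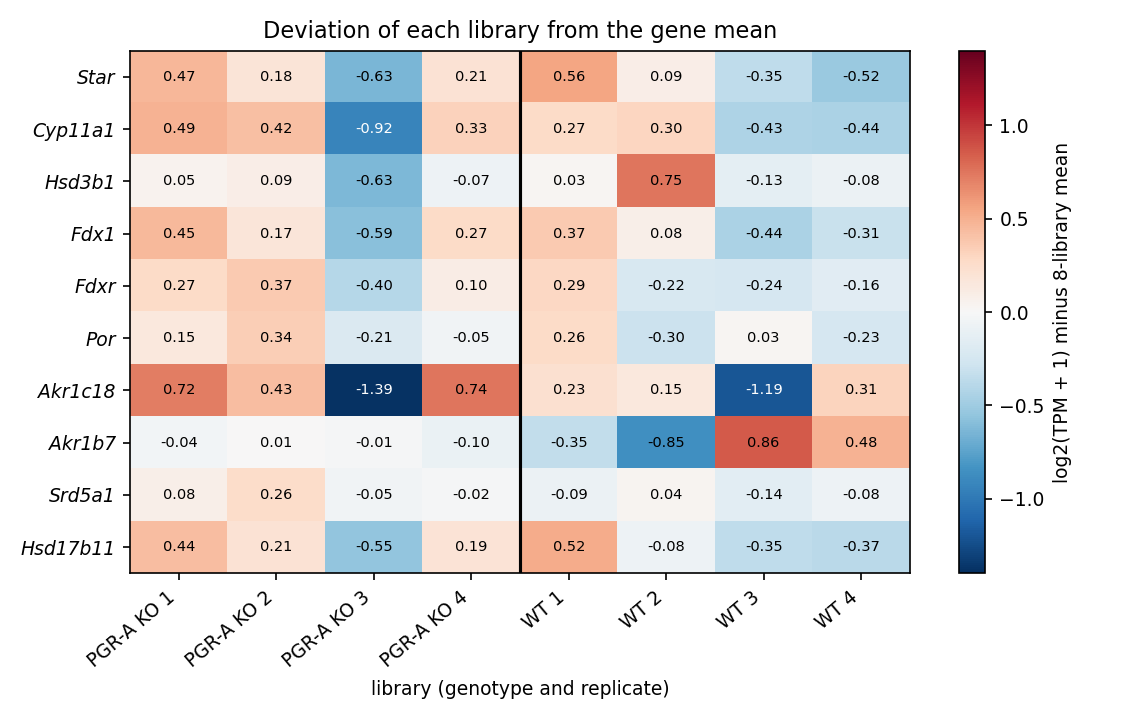
Deviation of each library from the 8-library mean of the gene, in log2(TPM + 1), with PGR-A KO libraries left of the line and WT libraries right of it. Red is above and blue below the mean. PGR-A KO replicate 3 is below the mean in all 10 genes, and Akr1b7 is high in WT replicates 3 and 4, where Star, Cyp11a1 and Fdx1 are low.

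Across the 8 libraries, log2(TPM + 1) of 12 of the 45 pairs of genes was related with a Benjamini-Hochberg adjusted p under 0.05 (exact permutation test of Pearson's r, 2-sided), all 12 positively, with r from 0.84 to 0.98. Star and Fdxr, Fdx1 and Fdxr, Fdxr and Por, and Cyp11a1 and Akr1c18 passed only narrowly, each at an adjusted permutation p of 0.0499. The share of such pairs among all genes was not computed. By Spearman's rho 3 of the 45 pairs passed. The closest pair was Star and Hsd17b11 (r = 0.98, exact permutation p = 4.96e-05, adjusted 0.00223; rho = 0.98, p = 0.000397, adjusted 0.0179). Next were Star and Fdx1 (r = 0.97, exact permutation p = 0.000496, adjusted 0.00744; rho = 0.95, p = 0.00114, adjusted 0.0257) and Fdx1 and Hsd17b11 (r = 0.97, exact permutation p = 0.000198, adjusted 0.00446; rho = 0.93, p = 0.00223, adjusted 0.0335). Without the 2 libraries farthest from the median of the first gene these r were 0.98, 0.96 and 0.96. Star and Cyp11a1 passed by r but not by rho (r = 0.92, exact permutation p = 0.00298, adjusted 0.0223; rho = 0.74, p = 0.0458, adjusted 0.147), with r = 0.82 once replicate 3 of PGR-A KO and replicate 4 of WT were left out. With deviations from the genotype means in place of the levels, the r of these 4 pairs was between 0.92 and 0.98. The libraries of a pair share their cells and their TPM scale, so such relations describe the libraries and not a link between the genes.

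Akr1c18 followed Cyp11a1 and Fdx1 more loosely. For Cyp11a1 r was 0.84 (exact permutation p = 0.0128, adjusted 0.0499; rho = 0.76, p = 0.0368, adjusted 0.147), and 0.96 without the libraries farthest in Cyp11a1, replicate 3 of PGR-A KO and replicate 4 of WT. Without those farthest in Akr1c18, replicate 3 of each genotype, it was 0.37, a value computed after the data were seen. For Fdx1 r was 0.85 (exact permutation p = 0.00526, adjusted 0.0296; rho = 0.76, p = 0.0368, adjusted 0.147), but 0.45 once replicate 3 of each genotype was left out. Both relations were thus weaker without these libraries together, which are the lowest in Akr1c18 and make up much of its range. That with Cyp11a1 was not weaker when PGR-A KO replicate 3 was left out with WT replicate 4. Hsd3b1, Akr1b7 and Srd5a1 had no relation that passed, with adjusted p of at least 0.140 by the same permutation test. The r of Hsd3b1 depended on the libraries farthest in it, PGR-A KO replicate 3 and WT replicate 2. Without them its r with Fdxr was 0.94 in place of 0.23, and with Akr1c18 0.59 in place of 0.52. With Akr1b7 it was -0.72 in place of -0.59. Akr1b7 had r below 0 with 8 of the 9 other genes, down to -0.59 with Hsd3b1.

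**Figure D4:**
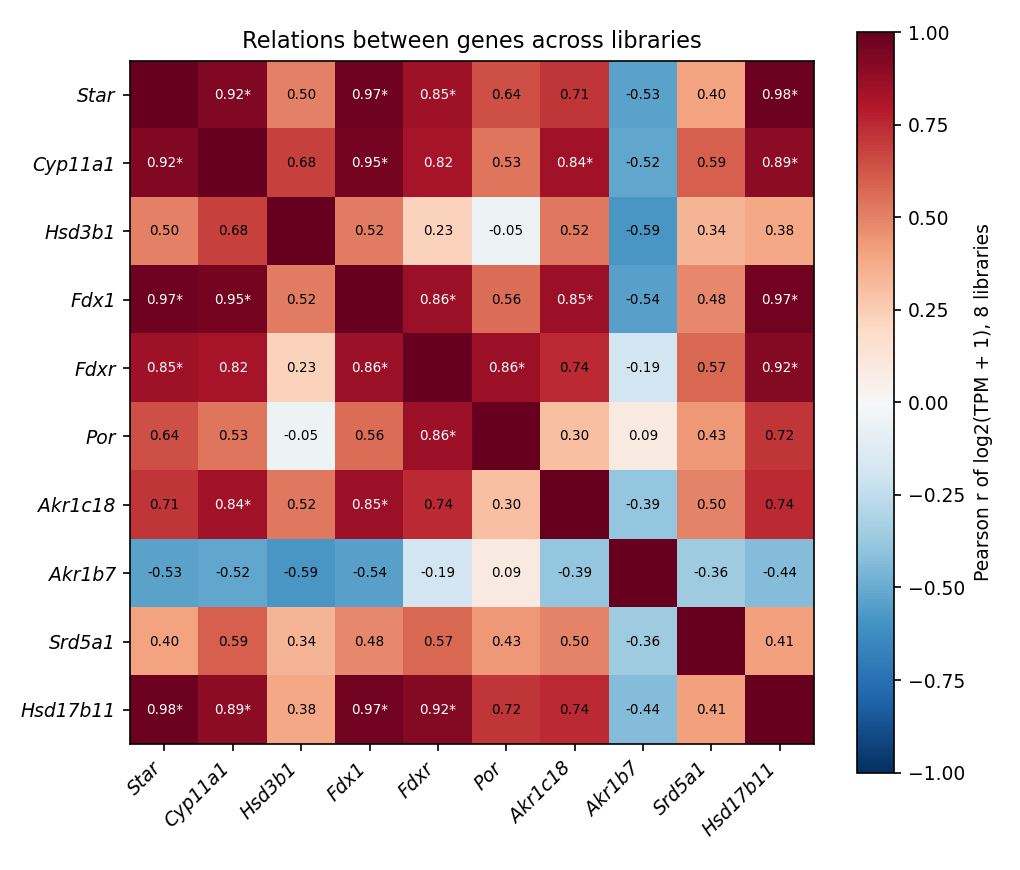
Pearson's r between each pair of genes over the 8 libraries, 4 PGR-A KO and 4 WT, of log2(TPM + 1). Asterisks mark the 12 pairs with an adjusted p under 0.05 by exact permutation over 45 pairs. Star, Cyp11a1, Fdx1, Fdxr and Hsd17b11 form a block of high values, and Akr1b7 has r between -0.59 and 0.093. Outside the block, Fdxr with Por (0.86) and Akr1c18 with Cyp11a1 (0.84) and Fdx1 (0.85) exceed its lowest value, Cyp11a1 with Fdxr (0.82).

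The promoters of 3 genes of that block and of Akr1b7 are shown because these genes differed in how they followed the libraries. Each line holds the 250 bases before the RefSeq start on the GRCm38.p6 assembly, which is mm10, on the strand of the gene; capitals mark the motifs searched. The window of Fdx1 lies at chr9:51963603-51963852 on the minus strand, that of Fdxr at chr11:115276970-115277219 on the minus strand, that of Hsd17b11 at chr5:104021797-104022046 on the minus strand and that of Akr1b7 at chr6:34412112-34412361 on the plus strand.
Fdx1: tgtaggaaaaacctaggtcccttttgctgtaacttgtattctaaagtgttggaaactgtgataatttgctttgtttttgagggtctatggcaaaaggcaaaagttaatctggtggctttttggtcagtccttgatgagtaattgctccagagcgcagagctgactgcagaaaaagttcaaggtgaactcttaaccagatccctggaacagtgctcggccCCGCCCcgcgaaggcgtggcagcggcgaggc
Fdxr: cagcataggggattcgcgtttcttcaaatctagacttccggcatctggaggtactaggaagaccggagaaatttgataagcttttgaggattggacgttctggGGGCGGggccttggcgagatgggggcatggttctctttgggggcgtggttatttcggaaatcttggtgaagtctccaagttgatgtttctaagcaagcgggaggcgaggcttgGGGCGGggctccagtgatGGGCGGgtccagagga
Hsd17b11: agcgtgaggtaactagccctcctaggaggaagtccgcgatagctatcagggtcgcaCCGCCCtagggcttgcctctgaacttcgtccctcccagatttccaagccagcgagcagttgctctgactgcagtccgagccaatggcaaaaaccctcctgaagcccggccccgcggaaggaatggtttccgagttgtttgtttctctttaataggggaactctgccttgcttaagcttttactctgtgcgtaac
Akr1b7: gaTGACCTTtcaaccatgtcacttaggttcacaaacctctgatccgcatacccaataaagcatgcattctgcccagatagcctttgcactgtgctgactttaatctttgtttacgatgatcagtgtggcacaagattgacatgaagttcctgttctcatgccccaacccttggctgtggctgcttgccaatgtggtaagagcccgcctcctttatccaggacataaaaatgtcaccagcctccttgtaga

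The motifs searched on both strands of the 300-base windows were the SF-1 and LRH-1 motif AAGGTCA, the cAMP response element TGACGTCA, its core TGACG, which lies within the full element, the GATA core AGATAA, the C/EBP motif TTGCGCAA and the SP1 core GGGCGG. Windows were at hand for 9 of the 10 genes. Star had none and was not searched. Cyp11a1 had 2, so there were 10 windows. The SP1 core was in 7 of the 10, while 35.7% of all 32851 windows hold it. These windows belong to Cyp11a1, Fdx1, Fdxr, Por, Akr1c18, Srd5a1 and Hsd17b11. Of these, Srd5a1 had no relation that passed, Por had one with Fdxr, and Akr1c18 had those with Cyp11a1 and Fdx1. Whether the SP1 core goes with the relations was not tested. For Cyp11a1 it was found in the window 8387 bases from the nearest GENCODE start of the gene and not in the other, which lies 45 bases from such a start. AAGGTCA was found in Akr1b7 only among the 9, on the opposite strand and 248 bases before the start, while 4.72% of all windows hold it. The GATA core was in Hsd3b1 only (11.2% of all windows), and TGACG in Cyp11a1 only (20.8% of all windows), again in its more distant window. The full cAMP element (1.79% of all windows) and the C/EBP motif (0.183% of all windows) were in none of the 9. A match in these letters is not a binding site.

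The other genes of the pathway were taken from lists of enzymes, redox partners, cholesterol carriers and regulators. In these 5 lists, 65 genes were tested and 0 passed by limma over all genes, against 0.0138% of all genes. The log2 change was above 0 for 24 and below 0 for 41, while 42.6% of all genes tested had a change above 0. That share over all genes moved with the scaling, as described below. Their median change was -0.080 beside -0.023 for all genes, and 3 had an unadjusted limma p under 0.05, against 6.31% of all genes. Other steroid-converting enzymes had 4 of 15 changes above 0. The lowest p and the highest level among them was that of Sult1e1, the estrogen sulfotransferase, at 615, 518, 319 and 583 TPM in PGR-A KO replicates 1 to 4, against 492, 292, 214 and 252 TPM in WT replicates 1 to 4. The groups overlapped through PGR-A KO replicate 3 and WT replicate 1, and the log2 change was 0.73 (SE 0.28, limma adjusted p = 0.783).

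Other redox partners had 5 of 9 changes above 0. Cyb5a, cytochrome b5, which supports the lyase reaction of CYP17A1, was at 643, 730, 837 and 634 TPM in PGR-A KO replicates 1 to 4, against 762, 1058, 937 and 887 TPM in WT replicates 1 to 4. All WT libraries but replicate 1 lay above all PGR-A KO libraries, with a log2 change of -0.36 (SE 0.12, limma adjusted p = 0.757). Aldo-keto reductases of the Akr1b and Akr1c clusters had 2 of 5 changes above 0, with the lowest p for Akr1c13 (log2 change -0.34, SE 0.16, limma adjusted p = 0.785) and the highest level for Akr1b3, aldose reductase, at 256 ± 28.1 TPM in PGR-A KO and 253 ± 17.0 TPM in WT (SD, n = 4 each).

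Genes of cholesterol delivery had 7 of 15 changes above 0, with a median of -0.0089. Scarb1, the receptor through which rodent steroidogenic cells take up HDL cholesterol, was the most abundant of them at 724 ± 184 TPM in PGR-A KO and 629 ± 105 TPM in WT (SD, n = 4 each; log2 change 0.18, SE 0.20, limma adjusted p = 0.910). The lowest p was that of Npc1, which exports cholesterol from lysosomes, at 31.2 ± 3.23 TPM in PGR-A KO and 34.6 ± 1.17 TPM in WT (SD, n = 4 each; limma adjusted p = 0.802). Regulators of steroidogenic genes had 6 of 21 changes above 0. Nr0b1, which encodes DAX-1, a repressor of SF-1, had the lowest p at 3.95, 3.73, 8.46 and 5.46 TPM in PGR-A KO replicates 1 to 4, against 4.50, 14.1, 11.3 and 8.28 TPM in WT replicates 1 to 4 (log2 change -0.68, SE 0.32, limma adjusted p = 0.789). Nr0b1 was high in libraries where Star and Hsd17b11 were low, apart from WT replicate 2. Nr5a2, which encodes LRH-1, was the most abundant regulator at 233 ± 8.26 TPM in PGR-A KO and 272 ± 68.7 TPM in WT (SD, n = 4 each; limma adjusted p = 0.862).

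Left out together, PGR-A KO replicate 3 and WT replicate 1 gave another count. With the other 6 libraries, limma called 2 of the 10 genes higher in PGR-A KO, Fdxr (log2 change 0.45, SE 0.079, adjusted p = 0.0194) and Hsd17b11 (0.54, SE 0.11, adjusted p = 0.0262), and 19 of 63 genes of the other lists, 11 higher and 8 lower. In this fit 8.01% of all 14114 genes tested were called. The libraries left out were picked for their values, which lie with those of the other genotype, so the difference is widened by construction and the fit is no test of genotype. Star (0.54, adjusted p = 0.0796), Cyp11a1 (0.60, adjusted p = 0.0968) and Fdx1 (0.52, adjusted p = 0.0634) did not pass in it, nor did Akr1c18 (0.87, adjusted p = 0.181). Other named genes that passed in it, higher in PGR-A KO, included Sult1e1 (1.18, adjusted p = 0.00665) and Akr1b8 (0.79, adjusted p = 0.00769). Scarb1 (0.48, adjusted p = 0.0293) was higher too. Lower were Akr1c14 (-1.29, adjusted p = 0.0240), Cyb5a (-0.52, adjusted p = 0.0201) and Nr0b1 (-1.17, adjusted p = 0.0177).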

How the data were processed

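Messenger RNA of 4 PGR-A KO and 4 WT pools of granulosa cells was sequenced. Groups and replicate numbers came from the sample titles. The authors deposited 1 table of TPM; the build mm10 and the tools Salmon, FastQC, edgeR and limma are listed, with no version, in the submitters' processing notes. Strand handling, the annotation and the summing of transcripts to genes are not known. Depth cannot be read from TPM, so no counting error is given; library sums were 994519 to 997022.

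No count test was run. log2(TPM + 1) of the 14472 genes that reached 1 TPM in 4 or more libraries was fitted with limma 3.58.1 (R 4.3.3, intensity trend, no covariates). Tests are 2-sided, with Benjamini-Hochberg adjustment over all genes (threshold 0.05). Changes are PGR-A KO minus WT and understate those of low genes. Exact permutation tests over 70 assignments gave the 10 genes p from 0.143 to 0.829; the smallest possible is 0.0286. Relations used all 40320 pairings. The steps were tested on simulated data.

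Named were the 10 genes; of each pathway list the called genes, or else the lowest p, and the highest level; the most abundant marker of each cell type; and the 3 genes most like Star, Cyp11a1 and Akr1c18. The genes and lists were chosen with earlier results of these data known. Positions are from GENCODE M21 (mm10). Shared 31-base words were counted in its transcripts, and promoters are from RefSeq on GRCm38.p6. Alternatives were other pseudocounts and filters, TMM-type factors, quantile normalization, no trend, a replicate block and each library left out; a fit of 6 libraries was added after the data were seen.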

Additional observations from a re-analysis of the deposited data

Results flagged for a closer look

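In 4 of the 20 groups of 4 libraries (10 genes, 2 genotypes), the gap between 1 library and the nearest of the other 3 was above Dixon's 95% limit for its share of the group's range; chance flags about 1 in 20 groups. For Cyp11a1, PGR-A KO replicate 3 had 373 TPM, while the other PGR-A KO libraries had 889 to 993 TPM. Hsd3b1 stood at 3401 TPM in WT replicate 2, above the other WT libraries at 1846 to 2060 TPM. Fdxr stood at 220 TPM in WT replicate 1, above the other WT libraries at 152 to 161 TPM. Akr1c18 stood at 9.70 TPM in WT replicate 3, below the other WT libraries at 26.1 to 29.4 TPM. The 4 flags fall on 4 libraries.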

How the results depend on the processing

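None of the 10 genes was called by limma in the 16 alternatives planned, which include each library left out, and at most 2 had an unadjusted p under 0.05; 2 were called with 6 libraries, a fit chosen after the data were seen. Genes of the other lists were likewise called 0 times in those 16 and 19 times with 6 libraries. The count over all genes, 2, became 1 with a pseudocount of 5, between 0 and 6 with a library left out, and 1131 with 6 libraries. Signs that turned, none of a called value, were those of Star (-0.044 to 0.34 with a library left out), Akr1c18 (-0.10 to 0.76), Akr1b7 (-0.37 to 0.21) and Akr1b3 (-0.040 to 0.085). The cause was not tested. Another scaling moved the share of all genes with a change above 0 from 42.6% to 51.6% with TMM-type factors and 54.4% with quantile normalization. Over the 45 relations, 12 passed, 13 with deviations from the group means and 13 with TMM-type factors.

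Same-numbered libraries of the 2 genotypes deviated together in numbers 1 and 3 (r = 0.36 and 0.39 over genes). In numbers 2 and 4 they did not (-0.11 and -0.29). PGR-A KO replicate 3 and WT replicate 4 had 0.43, so whether the numbers pair the samples is not settled. With a replicate block 2 genes passed over all genes, 0 of the 10 genes and 0 of the other lists. The SE of each of the 10 genes was smaller with the block. For Akr1c18 it fell from 0.51 to 0.12, for Star from 0.28 to 0.16, and for Por only from 0.15 to 0.14. Depth is unknown, and 4 libraries per genotype limit the precision.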

Other observations

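The genes most like 3 of the enzymes over the 8 libraries, by Pearson's r of log2(TPM + 1) among 10308 genes of at least 5 TPM, were picked as the highest values, so no p is attached to them. For Star they were Rap1gds1, Cdc42ep5 and Nsd3, each with r = 0.99. For Cyp11a1 they were Zpld1 (0.99), Efhd1 (0.99) and Mapkapk3 (0.98). For Akr1c18 they were Eid2b (0.98), Frat2 (0.93) and Apln (0.93). Without the 2 libraries farthest from the median the r of Frat2 with Akr1c18 was 0.43, and that of Cdc42ep5 with Star 0.99.

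Other steroid enzymes named after their values were seen differed in order between libraries. Cyp19a1, aromatase, was at 25.1, 26.7, 24.9 and 15.8 TPM in PGR-A KO replicates 1 to 4, against 14.6, 72.7, 67.2 and 23.2 TPM in WT replicates 1 to 4. Akr1c14, a 3-alpha-hydroxysteroid dehydrogenase, was at 114, 116, 237 and 144 TPM in PGR-A KO replicates 1 to 4, against 109, 472, 252 and 240 TPM in WT replicates 1 to 4. WT replicate 2 was the highest library for both genes, as it was for Hsd3b1, and no difference between genotypes was detected (limma adjusted p = 0.851 and 0.808). With PGR-A KO replicate 3 and WT replicate 1 both left out, libraries picked for their values, Akr1c14 passed (log2 change -1.29, limma adjusted p = 0.0240).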
